A study of Mus musculus and Rattus norvegicus with 30 samples.

Results

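The genes described here encode the subunits of the 5 mitochondrial complexes of oxidative phosphorylation, measured by bulk RNA-seq in the dorsal root ganglion (DRG), the cluster of sensory neuron cell bodies beside the spinal cord, after peripheral nerve injury. Members were chosen by symbol alone: those starting with Nduf (complex I, with the Ndufaf assembly factors left out), Sdha to Sdhd (complex II), Uqcr (complex III), Cox4 to Cox8 (complex IV) and Atp5 (complex V, the ATP synthase). The rule found 85 features in mouse, of 54315 counted, with 39 in complex I, 4 in complex II, 8 in complex III, 18 in complex IV and 16 in complex V. In rat it found 86 features, of 39281 counted, with 41, 4, 8, 18 and 15 in the same order. Ndufa4 and its relative Ndufa4l2 carry a complex I name and are counted there, although the Ndufa4 protein is now generally placed in complex IV.

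The mouse libraries came from L3 and L4 DRG of BALB/c and B10.D2 mice of both sexes, 1 animal per library, 28 days after spared nerve injury (SNI) or sham surgery. SNI cuts the common peroneal and sural nerves and spares the tibial nerve, so that these ganglia hold injured and uninjured neurons together. There were 6 BALB/c sham libraries (3 from females and 3 from males), 4 BALB/c SNI libraries (2 and 2), 5 B10.D2 sham libraries (2 and 3) and 5 B10.D2 SNI libraries (3 and 2). Another B10.D2 sham sample and another BALB/c SNI sample named in the labels were not analysed here. The rat libraries came from L5 DRG of male Wistar rats 21 days after spinal nerve transection (SNT), in which the left L5 spinal nerve is tied and cut, or after sham surgery, with 4 libraries of 3 pooled animals in each group. Mouse libraries were made from ribosome-depleted RNA and held 30.0 to 41.9 M counts (M stands for 1e6), and rat libraries were made from polyadenylated RNA and held 11.95 to 17.89 M counts. No transgene or gene deletion was used.

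Complexes I to IV pass electrons from NADH and succinate to oxygen and, apart from complex II, pump protons across the inner mitochondrial membrane, and complex V uses that gradient to make ATP. Complex II is encoded wholly in the nucleus, whereas the others combine nuclear subunits with subunits encoded by mitochondrial DNA. Sensory neurons have long axons with a high demand for ATP. Several subunits also exist as alternative isoforms, some of them typical of muscle, lung or testis.

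Most members could be measured in mouse and many could not in rat. In mouse 82 of 85 features passed the filter on low counts. Those that did not were Cox6a2 (1 to 67 counts per library), Cox7b2 (0 to 5) and Cox8c (0 in every library), the muscle and testis forms of complex IV subunits. In rat 55 of 86 passed. Another 21 were listed at 0 counts in all 8 rat libraries, among them Atp5a1, Atp5c1, Atp5o, Cox4i1, Cox6a1, Ndufb10, Sdhc and Uqcrfs1, which encode parts of the complexes that every respiring cell uses. A listing at 0 there is therefore not read as absence of the transcript. The remaining 10 rat features had few counts, namely Atp5f1 (4 to 20 per library), Cox6a2, Cox7a1, Cox8b, Cox8c, Ndufa10l1, and pairs of features that share the symbols Ndufa1 and Ndufs6.

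Some libraries stood apart from their groups. The summed level of 10 genes induced in injured sensory neurons, including Atf3, Gal and Sprr1a, was 795 counts per M (CPM, scaled by library size with TMM factors) in rat sham 4 and 310 to 347 in the other rat shams. Atf3 and Gap43 of that list are at 0 in rat. In rat SNT 1 the sum was 1123, against 1277 to 1666 in the other SNT libraries. In mouse it was 204 to 263 in shams, 663 to 811 in BALB/c SNI and 490 to 561 in B10.D2 SNI, apart from B10.D2 SNI 76 at 312. Skeletal muscle markers summed to 1735 CPM in BALB/c sham 50 and 678 CPM in BALB/c SNI 49, against 12.7 to 119 CPM in the other mouse libraries. All 14 neuron markers were counted in mouse, whereas in rat Rbfox3, Uchl1, Tubb3, Nefl, Nefm, Nefh and Pou4f1 are at 0 and Snap25 had no match.

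Because members share little beyond their function, the windows around their transcription starts were searched for 4 motifs known from promoters of respiratory genes. RefSeq windows on GRCm38.p6, each 300 bases long, were found for 67 of the 84 mouse member symbols, as 72 windows. The core of nuclear respiratory factor 1 (NRF1), CGCATGCG, which reads the same on both strands, was in 9 of the 72 windows (12.5%) and in 1.87% of all 32851 windows of the table. The core bound by ETS factors such as GABPA, CCGGAAG or its complement, was in 16 (22.2%, against 8.86% of all windows). The YY1 core AAGATGG was in 10 (13.9%, against 6.34%) and the core element of estrogen-related receptors, AAGGTCA, in 8 (11.1%, against 4.72%), each on either strand. At least 1 of the 4 was in 45.8% of member windows and in 20.1% of all windows. These are matches of letters in a fixed window, and binding was not measured.

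The 9 NRF1 matches are printed because they show how far from the start the same 8 letters, in capitals, recur across complexes. Each is given 5′ to 3′ on the strand of its gene with up to 10 bases on either side.
Atp5g2, chr15:102671071-102671098, minus strand, 41 bases before the start: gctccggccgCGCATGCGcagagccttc
Atp5j, chr16:84835106-84835133, minus strand, 147 bases before: ggccagaataCGCATGCGtacagtgcag
Atp5k, chr5:108434431-108434458, minus strand, 49 bases before: ttcactgcggCGCATGCGcctttctggc
Atp5l, chr9:44920966-44920992, minus strand, 241 bases before: aaccaataaCGCATGCGcatttccccc
Cox6a1, chr5:115349102-115349129, minus strand, 161 bases before: aggaacggggCGCATGCGcgctctcgct
Ndufa11, chr17:56717693-56717720, plus strand, 59 bases before: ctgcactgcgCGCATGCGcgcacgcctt
Ndufa8, chr2:36049330-36049357, minus strand, 9 bases before: tcgctggagaCGCATGCGcagatggtac
Uqcr11, chr10:80406809-80406836, minus strand, 5 bases before: atcgccttcaCGCATGCGctatacgtct
Uqcrc1, chr9:108936669-108936696, plus strand, 31 bases after: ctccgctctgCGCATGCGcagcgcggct

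The ETS core is shown for Ndufb6, Ndufs3, Ndufs8 and Sdhd, members whose injury values are followed through the sections on mouse and rat. Capitals mark the core, which is on the strand opposite to the gene in all stretches but the first of Ndufs3.
Ndufb6, chr4:40279637-40279663, minus strand, near the upstream end of its window: cgtccttgttCTTCCGGtcccctcccc
Ndufs3, chr2:90904732-90904758, minus strand, 27 bases before the start: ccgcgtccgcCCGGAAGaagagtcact
Ndufs3, chr2:90904704-90904730, minus strand, 1 base after: cacatttccaCTTCCGGtccgtgccct
Ndufs8, chr19:3912743-3912769, minus strand, 15 bases after: taggctccgcCTTCCGGttgaaccgca
Sdhd, chr9:50603879-50603905, minus strand, 46 bases before: cgtctcctgcCTTCCGGttcacgcttc

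Subunit transcripts were abundant in mouse DRG and differed widely among themselves. Levels between genes are given as counts per M per kilobase of the summed exon length in GENCODE M21, averaged over the 20 mouse libraries. The median over the 85 features was 47.0, beside 3.01 over all annotated features tested, and 72 of 85 lay at 10 or above. The highest level in each complex was that of Ndufa4 in complex I (144), Sdhd, a membrane anchor of succinate dehydrogenase, in complex II (83.7), Uqcr11 in complex III (133), Cox6b1, a subunit on the outer side of cytochrome c oxidase, in complex IV (247) and Atp5b, the catalytic beta subunit of the ATP synthase, in complex V (270). Medians were 43.4 in complex I, 59.7 in II, 65.7 in III, 45.7 in IV and 50.9 in V. The exon length counts every annotated transcript, and a gene with a long annotated transcript is divided by that length. Atp5l, with 6443 bases, was at 3.46 on this scale, and before scaling by length it was also among the lower complex V members, at 23.1 ± 1.73 CPM (SD, n = 6) in BALB/c shams. Together the members took 0.920% of counts in BALB/c shams. Most members varied little between animals of a group: over 83 features the within-group coefficient of variation had a median of 6.32% (quartiles 5.29% and 7.31%). Atp5g3 varied least (3.92%) and the muscle forms Cox8b (89.8%) and Cox6a2 (112%) most.

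**Figure D1:**
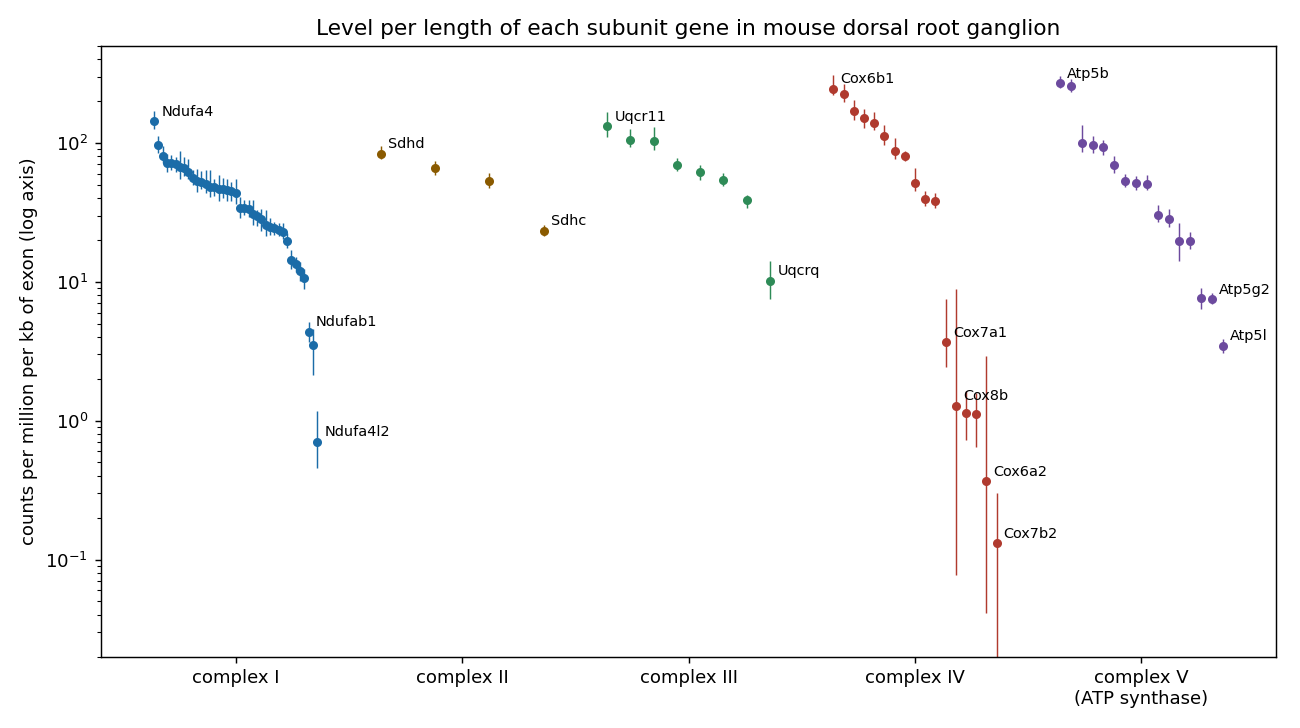
Level of each subunit gene in mouse DRG, in counts per M per kilobase of exon on a log axis, grouped by complex I to V. Points are means over 20 libraries and bars run from the lowest to the highest library. Cox8c, at 0, is not drawn and the lower bar of Cox7b2 is cut at 0.02. Most genes sit between 10 and 270, and the low points are isoforms such as Ndufa4l2 at 0.70 and Cox7b2 at 0.13.

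The alternative isoforms of a subunit differed widely in level, and the forms typical of muscle, lung or testis were low. Cox4i1, the general form of subunit 4, was at 170 counts per M per kilobase and Cox4i2, the form typical of lung, at 1.11. Cox6a1 was at 152 and its heart and muscle form Cox6a2 at 0.37, and Cox6b1 was at 247 and its testis form Cox6b2 at 1.13. For subunit 7a, Cox7a2 was at 139, Cox7a2l, which takes part in joining complexes III and IV, at 80.4 and the muscle form Cox7a1 at 3.67. Cox7b was at 111 and Cox7b2 at 0.13. For subunit 8, Cox8a was at 225.9, the muscle form Cox8b at 1.28 and the testis form Cox8c at 0. Ndufa4 was at 144 and Ndufa4l2, known as a gene induced by low oxygen, at 0.70. The genes Atp5g1, Atp5g2 and Atp5g3, which encode the same mature c subunit of the ATP synthase ring behind different import sequences, were at 19.7, 7.52 and 51.2.

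In BALB/c mice the comparison of SNI with sham asks how the injury changed each subunit gene in the ganglion 28 days later. Of 82 members tested, 12 were lower after SNI and none higher (edgeR quasi-likelihood test, Benjamini-Hochberg adjusted p under 0.05 over all 24685 features tested). That is 14.6% of members lower, beside 9.69% of all features called in either direction and 4.87% called lower. The falls were small, with log2 fold changes from −0.23 to −0.13 among the called members. The median over all 82 members was −0.12, beside 0.00 over all features, and 79 of the 82 lay below 0. Groups did not overlap for 8 of the 82, all lower after SNI, beside 8.61% of all features (4.31% lower). Bulk RNA cannot tell fewer cells of a type from less RNA per cell, and all values are relative to the rest of the counted RNA.

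Complex I held 8 of the 12 called members. Ndufs8, an iron-sulphur subunit of the arm that carries electrons to ubiquinone (chr19:3908863-3912774, minus strand, in GENCODE M21 on GRCm38, as for the other mouse genes), lay between 56.6 and 71.1 CPM in the 6 shams, with a median of 60.9. In the 4 SNI libraries it was 54.2, 51.3, 53.2 and 52.2 CPM. Every SNI library was thus below every sham, and the log2 fold change was −0.23 ± 0.06 (SE, n = 4 and 6; edgeR adjusted p = 0.0109).

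Ndufb10 and Ndufa10 were lower as well. Ndufb10, an accessory subunit of the membrane arm, ranged from 61.5 to 71.8 CPM in shams (median 64.7) and was 57.4, 54.8, 58.5 and 54.9 CPM after SNI. Ndufa10, an accessory subunit of complex I, ranged from 165 to 183 CPM in shams (median 172) and was 163, 141, 147 and 153 CPM after SNI. Both groups of both genes were free of overlap, although the highest SNI value of Ndufa10 lay just under the lowest sham. The log2 fold changes were −0.21 ± 0.05 for Ndufb10 (edgeR adjusted p = 0.0114) and −0.19 ± 0.05 for Ndufa10 (edgeR adjusted p = 0.00763). Other called complex I members included Ndufv2 (−0.19), Ndufa11 (−0.19), Ndufb5 (−0.18) and Ndufs3 (−0.13), all as log2 fold changes. Ndufa11 is 1 of the 9 genes with the NRF1 core printed above.

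Complex III contributed 1 called member and complex V 3. Uqcrc1, a core protein of complex III (chr9:108936633-108949623, plus strand), ranged from 165 to 175 CPM in shams (median 171) and was 162, 150, 146 and 159 CPM after SNI (log2 −0.14 ± 0.04, edgeR adjusted p = 0.0133). Atp5d, the delta subunit in the central stalk of the ATP synthase (chr10:80138632-80145818, plus strand), ranged from 96.9 to 113 CPM in shams (median 106) and was 91.3, 90.2, 95.2 and 93.3 CPM after SNI (log2 −0.19 ± 0.05, edgeR adjusted p = 0.0129). Groups did not overlap for either gene.

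Of the c subunit genes, Atp5g1 fell by 0.17 on the log2 scale (SE 0.05, edgeR adjusted p = 0.043) and Atp5g3 by 0.14 (SE 0.04, edgeR adjusted p = 0.0416). Atp5g2 had a log2 fold change of 0.00 ± 0.06 and did not pass the test. Atp5g1 was 81.1 CPM in BALB/c SNI 49 and 69.6 to 70.7 CPM in the other SNI libraries, against 74.1 to 90.7 CPM in shams, so that its groups overlapped. No member of complexes II or IV passed (4 and 15 tested, medians −0.04 and −0.08), with 1 and 3 of them at an unadjusted p under 0.05. Over all members 32 of 82 had an unadjusted p under 0.05 (39.0%, beside 23.2% of all features).

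The number of calls depended on single libraries. Leaving out each of the 20 mouse libraries in turn gave 5 to 13 called members. The lowest counts were 6 without BALB/c sham 56, 6 without SNI 64, 7 without SNI 65 and 5 without SNI 70. Atp5d, Uqcrc1, Ndufa10, Ndufb10 and Ndufs8 were called in all 20 of these fits.

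In B10.D2 mice the same comparison gave 6 members lower of 82 (7.32%) and none higher, beside 4.58% of all features called and 2.48% called lower. All but 1 belonged to complex I. The median log2 fold change over members was −0.11, beside 0.01 over all features, and 79 of 82 again lay below 0. Groups did not overlap for 6 of the 82, all lower after SNI, beside 5.18% of all features (2.77% lower). Ndufc2, a small membrane-arm subunit (chr7:97400003-97407802, plus strand), was 66.1, 59.3, 57.2, 54.9 and 58.7 CPM in shams and 50.9, 50.1, 49.3, 51.7 and 45.0 CPM after SNI. Ndufb6, another membrane-arm subunit (chr4:40270591-40279421, minus strand), was 74.4, 63.7, 65.3, 64.8 and 70.4 CPM in shams and 56.55, 58.66, 56.97, 62.83 and 55.95 CPM after SNI. For both genes the highest SNI library stood below the lowest sham. The log2 fold changes were −0.25 ± 0.06 for Ndufc2 (edgeR adjusted p = 0.0119) and −0.21 ± 0.05 for Ndufb6 (edgeR adjusted p = 0.00943).

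The remaining 4 were Ndufb10 (log2 −0.19), Ndufb3 (−0.18), Ndufa10 (−0.16) and Uqcrc1 (−0.15). Uqcrc1 was 173, 167, 166, 154 and 173 CPM in shams and 147, 145, 141, 159 and 151 CPM after SNI, with B10.D2 SNI 89 inside the sham range. Both strains shared the calls of Ndufa10, Ndufb10 and Uqcrc1, which is 25% of the BALB/c calls and 50% of the B10.D2 calls. No member of complex II, IV or V passed in B10.D2 (4, 15 and 16 tested, with 0, 1 and 8 at an unadjusted p under 0.05), and DESeq2 called 7 members in all. With edgeR 33 of the 82 had an unadjusted p under 0.05 (40.2%, beside 16.8% of all features). Leaving out single libraries gave 1 to 9 called members. There were 3 without sham 58, 2 without sham 67, 3 without SNI 69, 1 without SNI 90 and 9 without SNI 89. Ndufb6 was called in all 20 of these fits.

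**Figure D2:**
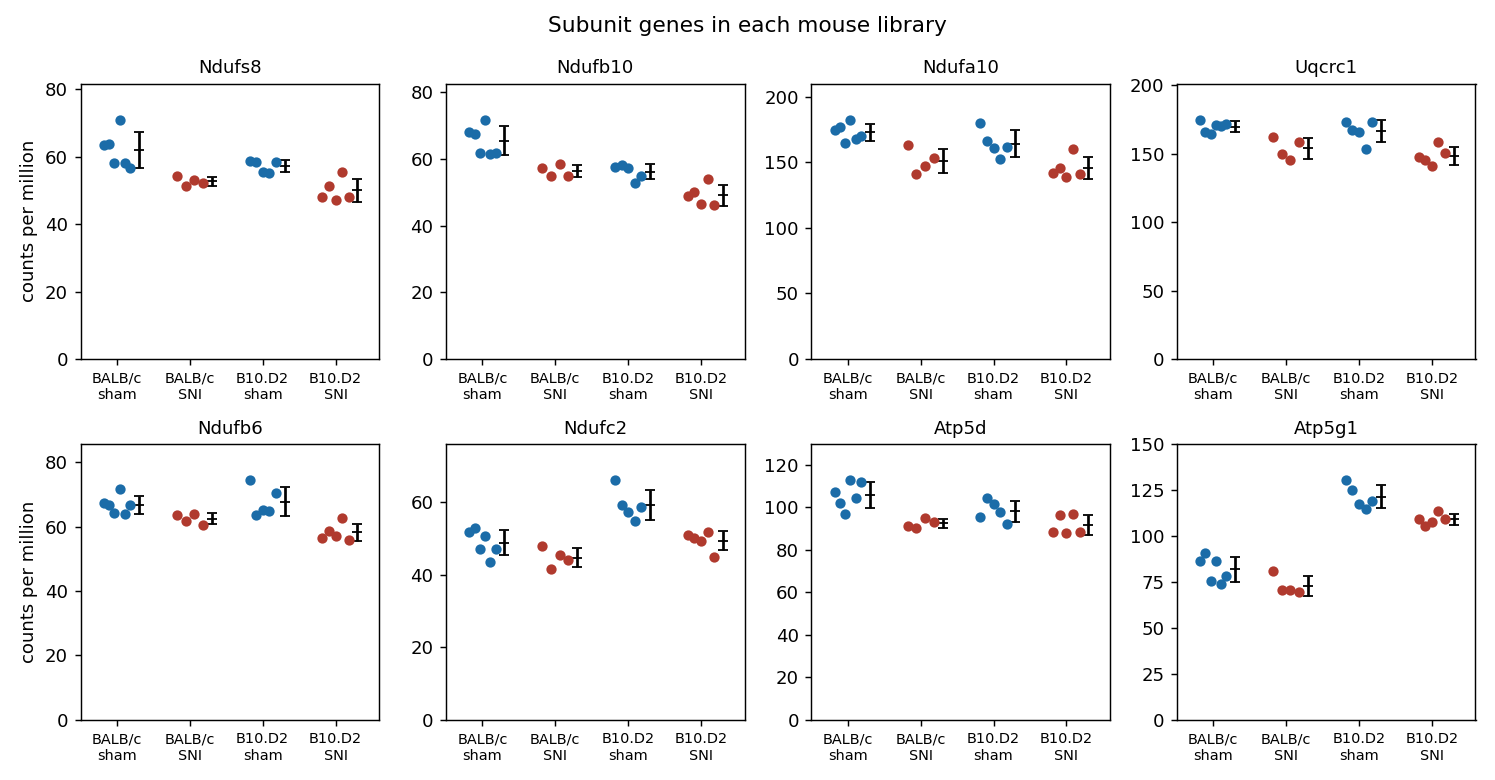
CPM of 8 subunit genes (Ndufs8, Ndufb10, Ndufa10, Uqcrc1, Ndufb6, Ndufc2, Atp5d and Atp5g1) in each mouse library by strain and surgery. Each point is 1 library, and the horizontal line and bar show the group mean ± SD. Ndufs8 falls from 56.6 to 71.1 CPM in BALB/c shams to 51.3 to 54.2 CPM after SNI, and Atp5g1 is higher in all B10.D2 than in all BALB/c libraries.

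The strain by SNI interaction asks whether the injury acted differently in the 2 strains. No member passed (edgeR, 0 of 82, beside 0.0243% of all features). At an unadjusted p under 0.05 there was 1 (1.22%, beside 4.35% of all features), and DESeq2 gave the same 2 counts. The median interaction over members was 0.01 on the log2 scale. For the 15 members called in either strain the interaction values ran from −0.12 to 0.10 with SEs of 0.05 to 0.08, and their lowest unadjusted p was 0.091. Ndufb6, for example, differed between the strains' injury effects by −0.12 ± 0.07, and Uqcrc1 by −0.01 ± 0.05. Calls made in 1 strain and not in the other are therefore not shown to differ. The member with an unadjusted p under 0.05 was Ndufa4l2, at −0.78 ± 0.31 (edgeR adjusted p = 1), a gene near 1 CPM.

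The subunits with the highest level per exon length in each complex were not among the mouse calls. By CPM, which is not divided by length, the highest complex III member in shams of both strains was Uqcrc1, which was called in both. Of the isoform sets Atp5g1 and Atp5g3 alone were called, in BALB/c. Atp5b was 1148 to 1277 CPM in BALB/c shams (median 1183) and 1160, 1075, 1103 and 1162 CPM after SNI, with overlapping groups and a log2 fold change of −0.09 ± 0.04. In B10.D2 its log2 fold change was −0.06 ± 0.04. The other members with the highest level per exon length of their complex had log2 fold changes of −0.12 and −0.12 (Ndufa4, BALB/c and B10.D2), −0.07 and −0.05 (Sdhd), −0.11 and −0.16 (Uqcr11) and −0.07 and −0.05 (Cox6b1). None of these values passed the test.

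Among isoforms, general forms had small negative log2 fold changes in both strains, such as −0.08 ± 0.06 and −0.12 ± 0.06 for Cox4i1, −0.14 ± 0.06 and −0.04 ± 0.06 for Cox6a1, and −0.09 ± 0.05 and −0.11 ± 0.05 for Cox8a. The rare forms had wide errors. Cox4i2 was at 0.17 ± 0.18 in BALB/c and −0.02 ± 0.18 in B10.D2, Cox7a1 at −0.24 ± 0.22 and −0.18 ± 0.21, Cox8b at −0.75 ± 0.58 and 0.58 ± 0.98, and Ndufa4l2 at 0.44 ± 0.22 and −0.34 ± 0.23. Cox6b2, the form called higher in rat, was at 0.00 ± 0.16 in BALB/c and 0.18 ± 0.15 in B10.D2. Atp5g1 was at −0.14 ± 0.05 in B10.D2 and did not pass there (edgeR adjusted p = 0.143).

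Summed over all members, the level was 9201 ± 516 CPM (SD, n = 6) in BALB/c shams and 8529 ± 295 (n = 4) after SNI, a change of −7.30% in the means. In B10.D2 it was 8899 ± 377 (n = 5) and 8230 ± 397 (n = 5), a change of −7.51%. By complex the change in BALB/c was −8.82% for I, −5.30% for II, −7.47% for III, −5.97% for IV and −6.95% for V. In B10.D2 it was −9.24%, −4.40%, −7.72%, −6.59% and −6.98% in the same order. Complex I showed the largest change of the 5 sums in both strains, and groups overlapped for the sum over all members in each strain.

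The summed level of neuron markers was also lower after SNI in mouse. The sum of the 14 neuron markers ranged from 14313 to 16501 CPM in BALB/c shams and from 12519 to 14416 after SNI, a change of −15.0% in the means. In B10.D2 it ranged from 15293 to 17516 in shams and from 12330 to 15584 after SNI (−16.4%). Of the 14, 4 were called lower in each strain, namely Snap25, Nefl, Nefm and Nefh, and Stmn2 was called higher in BALB/c. The median log2 fold change of the 14, which weighs each marker equally, was −0.12 in each strain. The sum of 11 macrophage markers changed by 35.5% in BALB/c (98.2 to 241 CPM in shams, 179 to 278 after SNI) and by 26.3% in B10.D2 (199.0 to 230.6 and 199.8 to 336.6), with 3 and 0 of the 11 called by edgeR, all of them higher. In B10.D2, 7 of the 11 had an unadjusted p under 0.05 and DESeq2 called 1. The sum of 5 fibroblast markers changed by 20.8% in BALB/c (952 to 1363 CPM in shams, 1118 to 1741 after SNI) and by 23.9% in B10.D2 (1178.2 to 1233.98 and 1118.6 to 1720.4), with Lum called higher in each strain. The part of these markers in the fall of the subunits was not tested.

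The rat comparison of SNT with sham asks the same of a ganglion whose whole spinal nerve was cut. Of 55 members tested, 31 were lower and 1 was higher (58.2%, beside 27.4% of all 13690 features called and 15.1% called lower). The median log2 fold change over members was −0.52, beside 0.00 over all features, and 52 of 55 lay below 0. Groups did not overlap for 12 of the 55 (11 lower and 1 higher after SNT), beside 26.5% of all features (14.3% lower). Absence of overlap is thus common among all features here. Called members were 19 of 29 in complex I, 2 of 3 in II, 3 of 5 in III, 6 of 11 in IV and 2 of 7 in V. The sum over members changed from 12768 ± 1436 CPM (SD, n = 4) in shams to 8990 ± 1826 (n = 4), by −29.6% in the means. SNT 1, at 11535 CPM, stood above sham 4, at 10920 CPM. Nothing in the labels or methods ties these pools to separate litters or days, so p-values measure the spread between pools.

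**Figure D3:**
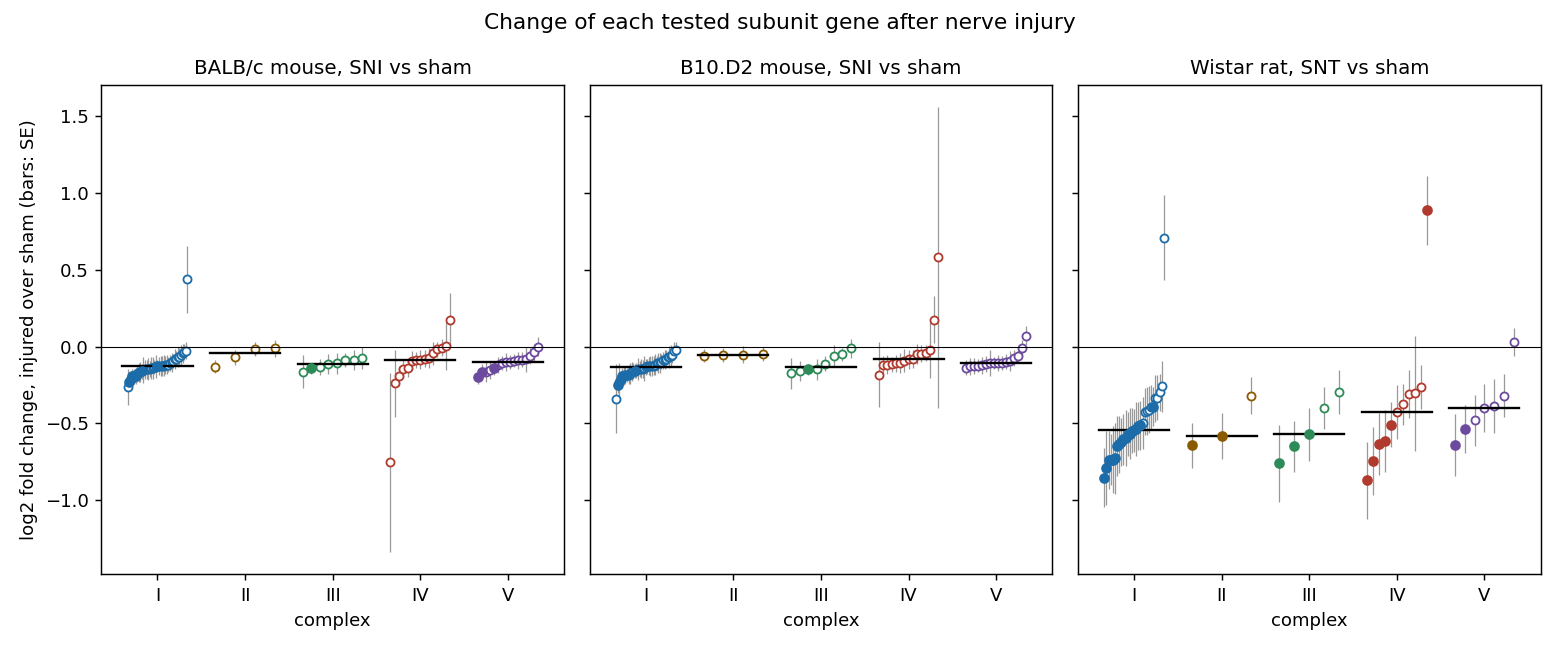
Log2 fold change ± SE of each member tested, by complex, for BALB/c SNI, B10.D2 SNI and rat SNT against sham. Filled points passed the test and black lines mark the median of each complex. Mouse points lie mostly between 0 and −0.25, rat points mostly between −0.3 and −0.87, with Cox6b2 at 0.89 above all others in rat.

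In complex I, Ndufs1, the largest subunit and a carrier of iron-sulphur clusters, was 472.6, 478.1, 436.7 and 356.0 CPM in shams 1 to 4 and 341.6, 188.3, 202.9 and 232.4 CPM in SNT 1 to 4. Ndufs3, a core subunit of the peripheral arm, was 173, 175, 173 and 136 CPM in shams and 132, 77.5, 88.2 and 95.6 CPM after SNT. Neither gene overlapped between groups, but in both sham 4 was the lowest sham and SNT 1 the highest injured library, with a narrow gap between them. The log2 fold changes were −0.85 ± 0.19 for Ndufs1 and −0.74 ± 0.17 for Ndufs3 (edgeR adjusted p = 0.0146 for both). Ndufa8 is an accessory subunit whose mouse gene has the NRF1 core printed above, and rat promoters were not searched. In rat Ndufa8 was 172, 194, 175 and 148 CPM in shams and 145.5, 94.65, 91.98 and 115.0 CPM after SNT (log2 −0.62 ± 0.16, edgeR adjusted p = 0.0195). Ndufb3, called in B10.D2 mice as well, was 161, 114, 123 and 102 CPM in shams and 99.9, 58.3, 68.2 and 73.6 CPM after SNT (log2 −0.74 ± 0.19, edgeR adjusted p = 0.0199). Ndufv2, a flavoprotein subunit, changed by −0.79 ± 0.24 with overlapping groups (edgeR adjusted p = 0.0361). Of the called complex I members the smallest falls were those of Ndufb2 (−0.39) and Ndufab1, the mitochondrial acyl carrier protein (−0.51).

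In complex II, Sdhd was 223, 190, 186 and 163 CPM in shams and 155, 106, 114 and 113 CPM after SNT (log2 −0.64 ± 0.15, edgeR adjusted p = 0.0148). Sdha, the flavoprotein that oxidises succinate, was 497, 596, 553 and 438 CPM in shams and 434, 304, 310 and 345 CPM after SNT (log2 −0.58 ± 0.15, edgeR adjusted p = 0.0208). Both genes were lower in every SNT library than in every sham, by a very small margin for Sdha.

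In complex III the called members were Uqcrh, the hinge protein (log2 −0.76), the core protein Uqcrc2 (−0.65) and Uqcrb (−0.57). Uqcrc2 was 390, 326, 316 and 251 CPM in shams and 254, 171, 185 and 208 CPM after SNT, and SNT 1 lay just above sham 4. Uqcrc1, called in both mouse strains, had a log2 fold change of −0.29 ± 0.14 in rat and did not pass there (edgeR adjusted p = 0.147).

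In complex IV, Cox7b was 380, 243, 243 and 190 CPM in shams and 210, 104, 123 and 140 CPM after SNT (log2 −0.87 ± 0.25, edgeR adjusted p = 0.0311). Cox7c fell by 0.75 on the log2 scale and Cox7a2l by 0.51. The 1 member called higher was Cox6b2, the testis form, at 1.16, 1.16, 0.997 and 1.43 CPM in shams and 1.90, 2.29, 2.72 and 1.90 CPM after SNT (log2 0.89 ± 0.22, edgeR adjusted p = 0.0196). Its levels are low, and its groups did not overlap. Ndufa4l2, the rare relative of Ndufa4, was likewise low, at 0.746 to 1.46 CPM in shams and 1.39 to 2.07 CPM after SNT (log2 0.71 ± 0.28), and did not pass (edgeR adjusted p = 0.0817).

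In complex V, Atp5l, a membrane subunit of the ATP synthase, was 423, 263, 265 and 247 CPM in shams and 253, 159, 176 and 181 CPM after SNT (log2 −0.64 ± 0.20, edgeR adjusted p = 0.0422). Atp5s, a factor associated with the synthase, was the other called member (−0.54 ± 0.16, edgeR adjusted p = 0.0328). Atp5g2 was 166, 148, 166 and 143 CPM in shams and 163, 157, 153 and 163 CPM after SNT. Its groups overlapped fully, with a log2 fold change of 0.03 ± 0.09 that did not pass. Atp5g3 was at −0.48 ± 0.17 and missed the threshold (edgeR adjusted p = 0.0576), and Atp5g1 is listed at 0 in rat. Atp5b was 2059, 2563, 2068 and 1969 CPM in shams and 2108, 1323, 1423 and 1784 CPM after SNT, with SNT 1 inside the sham range (log2 −0.38 ± 0.18, edgeR adjusted p = 0.125).

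**Figure D4:**
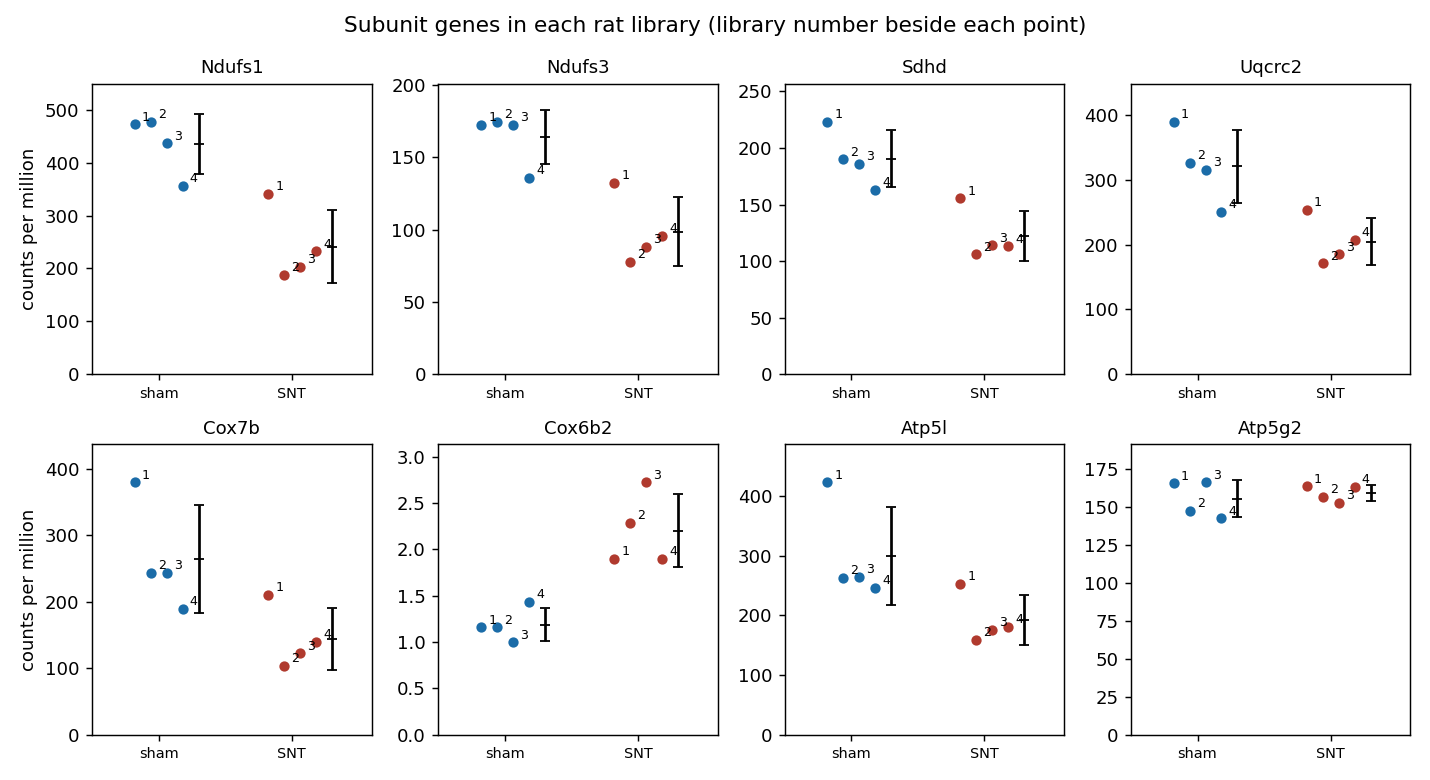
CPM of 8 subunit genes (Ndufs1, Ndufs3, Sdhd, Uqcrc2, Cox7b, Cox6b2, Atp5l and Atp5g2) in each rat library, with the library number beside each point and the group mean ± SD as line and bar. Sham 4 and SNT 1 lie closest to the opposite group in most panels, as for Ndufs1 at 356 and 342 CPM, and Atp5g2 overlaps between groups.

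The number of rat calls depended strongly on single libraries. Leaving out sham 1, 2 or 3 left 6, 7 or 3 called members, and leaving out SNT 2, 3 or 4 left 3, 3 or 6. Without sham 4 there were 39, and without SNT 1 there were 48. Without both of the latter, 52 of 56 members were called (51 lower), the median was −0.71 and 43.9% of all features were called. In the main fit 27.4% of all features were called. For the fits that left out 1 library that share is not given, so their counts are not read as particular to the subunits. Ndufs1, Ndufs3 and Sdhd were called in all 8 fits that left out 1 library. Sham 1 was the highest library for Atp5l, Cox7b, Cox7c, Uqcrh, Uqcrc2 and Sdhd, among others, though not for Ndufs1 or Sdha. A number in the titles is shared by 1 sham and 1 SNT library each. Within the 4 shared numbers the median log2 ratio of SNT to sham over the 55 members was −0.26, −0.82, −0.64 and −0.29, with 44, 52, 53 and 49 members below 0.

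Rat marker levels stand beside these values. The neuron markers that were counted summed to 7391 to 10601 CPM in shams and 6288 to 10401 CPM after SNT (−4.79% in the means). The median log2 fold change of the 6 tested, which weighs each marker equally, was −0.64. Of the 6, 5 had an unadjusted p under 0.05 with edgeR, and DESeq2 called 4. With edgeR 3 were called lower, namely the transcription factor Isl1 (log2 −1.09), the actin-binding protein gene Avil (−1.42) and the synaptic vesicle gene Syt1 (−0.71). Macrophage markers summed to 136 to 542 CPM in shams, with sham 4 the highest, and 457 to 710 CPM after SNT, and 1 of 6 tested was called, higher. Cd68, Aif1, Csf1r, Mrc1 and Ptprc of that list are at 0. Over the means, macrophage markers changed by 112%.

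Markers of other cell types changed in rat too. In the means the Schwann cell and fibroblast sums and the endothelial marker were higher after SNT, whereas the satellite glia sum was lower. Schwann cell markers summed to 2039 to 2618 CPM in shams and 2443 to 4050 CPM after SNT (52.2% in the means), with 3 of 4 tested called higher, among them the myelin gene Mag and the gap junction gene Gjb1, while others of the list, such as Mbp and Egr2, are at 0. Fibroblast markers summed to 882 to 2006 CPM in shams and 1857 to 2708 CPM after SNT (60.9%), with 1 of 3 tested called, higher, and Col1a1 and Pdgfra at 0. Groups overlapped for both sums. Of the endothelial markers Tek alone was counted, as Cdh5, Kdr, Cldn5 and Flt1 are at 0 and Pecam1 had no match. Tek was low and did not overlap, at 37.8 to 51.3 CPM in shams and 53.2 to 79.8 CPM after SNT (55.2%). It was called higher. Satellite glia markers summed to 7867 to 11990 CPM in shams, with sham 4 the highest, and 6258 to 8372 CPM after SNT (−18.5%). Of 3 tested, Slc1a3 was called lower and Sox10, which Schwann cells express as well, higher, and Fabp7, Kcnj10 and Glul are at 0. The part of cell composition in the rat result was not tested.

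The 55 symbols tested in rat were set beside their mouse values as a description, since species, injury, ganglion, day and library type all differ. Their median log2 fold change was −0.11 in BALB/c, −0.11 in B10.D2 and −0.52 in rat. The rat value was below the BALB/c value for 52 of 55 symbols and below the B10.D2 value for 53. By complex the rat medians were −0.54 for I, −0.58 for II, −0.57 for III, −0.43 for IV and −0.40 for V. Ndufs3, Ndufv2 and Ndufb5 were called in BALB/c and in rat, and Ndufb3, Ndufb6 and Ndufc2 in B10.D2 and in rat. Of the members called in every left-out fit in BALB/c, Ndufs8 was at −0.42 ± 0.15 in rat, Ndufa10 at −0.49 ± 0.17 and Atp5d at −0.32 ± 0.14, none of which passed (edgeR adjusted p = 0.0628, 0.0536 and 0.108), and Ndufb10 is listed at 0.

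Sham ganglia of the strains differed at a few subunit genes. The B10.D2 shams were compared with the same BALB/c shams that serve as controls for SNI, so these values share libraries with the BALB/c injury values. Of 82 members 3 were higher and 5 lower in B10.D2 (9.76%, beside 21.6% of all features). Groups did not overlap for 5 of the 82 (3 lower and 2 higher in B10.D2), beside 13.3% of all features. The clearest was Atp5g1 (chr11:96068852-96075670, minus strand), at 130, 125, 118, 115 and 119 CPM in B10.D2 shams and 74.1 to 90.7 CPM in BALB/c shams (median 82.4). Groups lay far apart, with a log2 difference of 0.56 ± 0.05 (edgeR adjusted p = 1.07e-08). Its level per exon length in shams was 24.7 ± 1.28 in B10.D2 and 16.7 ± 1.38 in BALB/c (SD, n = 5 and 6), whereas Atp5g3, which encodes the same mature protein, was at 52.3 ± 1.67 and 53.9 ± 2.47.

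Ndufc2 was also higher in B10.D2 shams (log2 0.27 ± 0.05, edgeR adjusted p = 0.000628), at 54.9 to 66.1 CPM against 43.7 to 52.8 CPM, and so was Atp5s (0.19 ± 0.06, edgeR adjusted p = 0.0378). Lower in B10.D2 were Ndufb10 (−0.22), Ndufb5 (−0.16) and Ndufs3 (−0.12). A further feature, ENSMUSG00000048967, was lower at −0.44 ± 0.11 (edgeR adjusted p = 0.00559). The deposited table calls it Ndufa13, but GENCODE M21 names it Yjefn3, and it overlaps Ndufa13 itself (ENSMUSG00000036199) on the same strand of chromosome 8, so its counts cannot be assigned with certainty to either. Other members called after SNI had strain values that did not pass, such as Ndufs8 (−0.12 ± 0.05, edgeR adjusted p = 0.132) and Atp5d (−0.11 ± 0.05, edgeR adjusted p = 0.0997). Leaving out single libraries gave 5 to 13 called members, with 5 without BALB/c sham 50, 5 without sham 56, 5 without B10.D2 sham 67 and 13 without BALB/c sham 71. Atp5g1, Ndufc2, Ndufb10, ENSMUSG00000048967 and Cox8b were called in all 20 fits.

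Cox8b, the muscle form of subunit 8 (chr7:140898945-140900446, minus strand), carried the widest strain difference and few counts. The BALB/c shams held 108, 34, 28, 15, 12 and 14 counts and the B10.D2 shams 4, 2, 5, 4 and 2. Totals were 211 counts of 221 M against 17 counts of 186 M, a ratio of 10.4 (exact 95% interval 6.37 to 18.3, for counting error only). Without BALB/c sham 50 the ratio was 6.0 (3.57 to 10.7). The fitted log2 difference was −3.33 ± 0.71 (edgeR adjusted p = 0.0015), and −3.60 to −2.51 with single libraries left out. Cox8b passed the filter on low counts through the BALB/c libraries, as B10.D2 libraries held 1 to 7 counts. Its call in every left-out fit is therefore not independent of its level in BALB/c. Skeletal muscle markers moved with it: edgeR called 7 of 10 lower in B10.D2 shams, beside 21.6% of all features called. DESeq2 called 1 of the 10, with 2 at an unadjusted p under 0.05, against 10 with edgeR. Their sum ranged from 12.7 to 42.1 CPM in B10.D2 shams and from 12.8 to 1735 CPM in BALB/c shams (median 54.9). The library with the most Cox8b counts was the one with the highest sum. Cox7a1, the other muscle form tested, was 4.05 CPM in that library, 1.31 to 1.98 CPM in the other BALB/c shams and 2.08 ± 0.26 CPM (SD, n = 5) in B10.D2 shams, and did not pass (log2 −0.05 ± 0.20). The part of muscle RNA in these values was not tested.

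**Figure D5:**
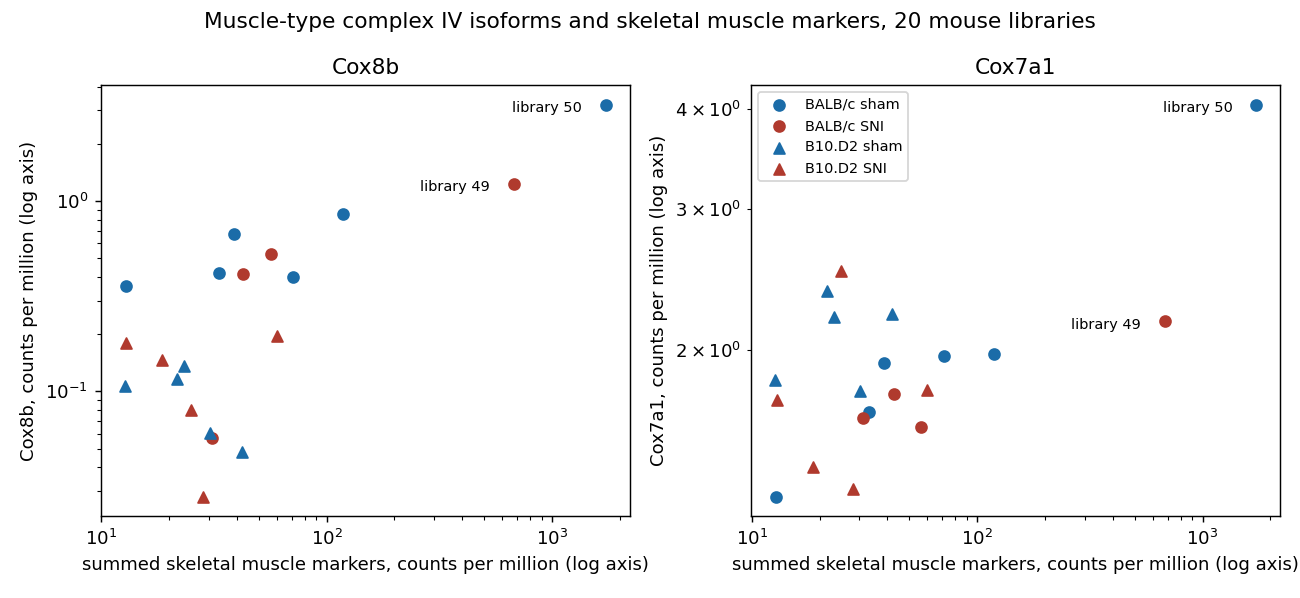
CPM of Cox8b and Cox7a1 against the summed CPM of 10 skeletal muscle markers in the 20 mouse libraries, both axes on log scales, coloured by group. BALB/c sham 50, with a marker sum of 1735 CPM, holds the highest value of both genes (3.22 and 4.05 CPM), and B10.D2 libraries lie at the low end for Cox8b.

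Female and male mice were compared through the sex term of the mouse model. No member passed (edgeR, 0 of 82, beside 0.243% of all features). At an unadjusted p under 0.05 there were 8 (9.76%, below the 11.7% of all features). DESeq2 called 0 with 8 at an unadjusted p under 0.05. The median log2 difference of females from males was −0.04, and 75 of 82 members lay below 0.

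The genes around the complexes were followed through lists of related function. Counts in them are read beside the share of all features called, which was 9.69% in BALB/c and 4.58% in B10.D2 after SNI (4.87% and 2.48% lower), 27.4% in rat (15.1% lower) and 21.6% between sham strains. Most of these lists hold few genes, so a share shifts by several points with each call. Of 13 mitochondrially encoded subunits 9 were tested in mouse and edgeR called 0 in either strain after SNI, with 3 (BALB/c) and 1 (B10.D2) at an unadjusted p under 0.05 and 0 and 1 called by DESeq2. The median log2 fold change of the 9 was −0.27 for BALB/c, and −0.13 for B10.D2. Their counts were uneven, from 3083 CPM for mt-Co1 to 0.235 CPM for mt-Co2 in BALB/c SNI, and all 13 are at 0 in rat.

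Of 44 assembly factors, 4 were called lower after SNI in BALB/c and 4 in B10.D2, none higher, which is 9.09% in each strain. The largest falls were those of Ndufaf2 (log2 −0.36) and Atpaf1 (−0.36) in BALB/c, and of Sdhaf3 (−0.29) and Atpaf1 (−0.26) in B10.D2. Atpaf1 is a chaperone for assembly of the ATP synthase. In rat 8 of 24 tested were lower (33.3%), led by Ndufaf5 (−0.84) and Ndufaf7 (−0.77). Between sham strains 10 of 44 were called (22.7%), a share close to that of all features. Of these, 6 were higher in B10.D2, led by Lyrm7 (0.96) and Uqcc1 (0.41), both factors of complex III assembly, and 4 were lower, led by Atpaf1 (−0.46) and Uqcc2 (−0.28). Over the alternatives the count ran from 0 to 4 in BALB/c, 0 to 5 in B10.D2, 4 to 12 between sham strains and 7 to 20 in rat, where 20 were called without sham 4 and SNT 1.

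Of 13 genes for electron carriers and ubiquinone synthesis, edgeR called 0 after SNI in either strain, with 3 (BALB/c) and 5 (B10.D2) at an unadjusted p under 0.05, and DESeq2 called 2 in each. In rat 3 of 9 were lower (33.3%, and 3 to 6 over the alternatives), led by Etfa (−0.87) and Coq3 (−0.76). Between sham strains 4 of 13 were called (30.8%, and 2 to 4 called over the alternatives). Coq2 (0.35) and Coq3 (0.16) were higher and Coq5 (−0.59) and Coq8a (−0.29) lower in B10.D2.

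Among 16 regulators of mitochondrial biogenesis the nuclear receptors Esrrb and Esrrg were lower after SNI in both strains, by −0.91 and −0.76 in BALB/c and −0.80 and −0.69 in B10.D2. Ppargc1a, the coactivator PGC-1 alpha, was the third called in BALB/c (−0.27). These are 18.8% and 12.5% of the list, and the count ran from 0 to 4 in BALB/c and 0 to 2 in B10.D2 over the alternatives. In rat 4 of 10 were called (40%, and 2 to 5 over the alternatives), with Nrf1 (0.43) and Pprc1 (0.37) higher and Esrrb (−2.37) and Tfb1m (−0.48) lower. Between sham strains 1 of 16 was called (6.25%, and 0 to 3 over the alternatives), Twnk, the mitochondrial helicase, which was lower in B10.D2 (−0.32). Nrf1 here is the gene for nuclear respiratory factor 1.

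TCA cycle enzymes were called lower in 4 of 17 cases in BALB/c (23.5%), among them Sucla2 (−0.19) and Pdhb (−0.18), and in 3 of 17 in B10.D2 (17.6%), led by Sucla2 (−0.19) and Pdhb (−0.17). The count ran from 0 to 4 in BALB/c and 0 to 5 in B10.D2 over the alternatives. In rat 6 of 12 were called (50%, and 2 to 7 over the alternatives), of which 5 were lower, led by Dld (−0.68) and Suclg1 (−0.56), and Suclg2 was higher (0.30). Between sham strains 3 of 17 were called (17.6%, below the share of all features, and 0 to 3 over the alternatives), with Idh3b higher (0.19) and Ogdh (−0.19) and Suclg1 (−0.18) lower in B10.D2.

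Glycolysis enzymes were lower in 5 of 17 cases in BALB/c (29.4%) and 3 of 17 in B10.D2 (17.6%), with Aldoc (−0.37 and −0.40) and Ldhb (−0.33 and −0.26) leading in both. The count ran from 0 to 5 in BALB/c and 0 to 4 in B10.D2 over the alternatives. In rat 3 of 12 were called (25%, below the share of all features, and 1 to 3 over the alternatives), with Hk2 higher (0.89) and Ldhb (−0.82) and Pfkm (−0.64) lower. Between sham strains 4 of 17 were called (23.5%, and 3 to 4 over the alternatives). Eno1 (0.63) and Gapdh (0.43) were higher and Ldhb (−0.30) and Eno2 (−0.28) lower in B10.D2.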

How the data were processed

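Per the methods and the submitters' processing notes, the authors aligned paired, strand-marked reads with STAR to mm10 or rn6 and counted them per gene with HTSeq (intersection-nonempty) against Ensembl annotation extended with assembled transcripts. The deposited tables hold raw counts. The authors' DESeq2 result tables, which hold their fold changes and p-values, were used for gene symbols alone. Here edgeR 4.0.16 (R 4.3.3; TMM, filterByExpr, quasi-likelihood F test) was fitted to all features, with sex, strain and surgery in 20 mouse libraries and surgery in 8 rat libraries, Benjamini-Hochberg adjusted p under 0.05 being called. Standard errors were derived from the log2 fold change and its F statistic. DESeq2 1.42.0, other normalisation and filters, single strains and left-out libraries were alternatives, and the fit was tested on simulated data. Depth was 30.0 to 41.9 M counts in mouse and 11.95 to 17.89 M in rat, where 3 counts equal 0.0716 to 0.100 and 0.168 to 0.251 CPM. All columns were mapped to a sample. Members and lists were chosen with earlier results of these data known. Named genes are every called member where 10 or fewer were called, otherwise the 2 lowest and 2 highest called per complex, besides the highest level per complex, isoform sets, members called after SNI, and the 2 largest changes in each direction of another list, apart from a few genes that are not reported here. Rat title numbers were not used to pair the libraries in the main fit. Deviations of same-numbered libraries correlated at −0.29 to 0.05, and those of other pairs at −0.55 to 0.49. With so few libraries this cannot decide whether the number marks a shared effect. Python 3.11.15 drew the figures.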

Additional observations from a re-analysis of the deposited data

Results flagged for a closer look

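In 174 groups of 4 to 6 libraries, counting each named member in each group, a library far from the rest was sought. Members share the same libraries, so these checks are not independent and their number was not compared with chance. In 16 groups (9.20%) such a library was found. In B10.D2 SNI 89 there were 5 of these, all above the group, including Atp5b at 1172 CPM, Cox6b1 at 181, Cox7b at 139 and Ndufa4 at 201. Rat SNT 1 held 4, again above its group: Ndufab1 at 108 CPM, Ndufv2 at 222, Sdhd at 155 and Cox4i2 at 3.16. Rat sham 1 was high for Atp5l at 423 CPM and Cox7a2 at 461. BALB/c sham 50 was high for the muscle forms Cox7a1 at 4.05 CPM and Cox8b at 3.22, beside its skeletal muscle marker sum of 1735 CPM. BALB/c SNI 49 was high for Atp5g1 at 81.1 CPM and Cox7a2l at 129, and BALB/c sham 56 for Uqcr11 at 107.

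Ndufa4l2 lay on opposite sides of the sham mean in the strains. All 4 BALB/c SNI libraries (0.752 to 1.296 CPM) were above the BALB/c sham mean of 0.737 CPM and all 5 B10.D2 SNI libraries (0.562 to 0.689 CPM) below the B10.D2 sham mean of 0.785 CPM. The test of the difference, the interaction, gave −0.78 ± 0.31 on the log2 scale (edgeR adjusted p = 1, unadjusted p = 0.0222).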

How the results depend on the processing

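Members called in BALB/c fell from 12 to 5 when that strain was fitted alone, and to 0 in male mice alone (13 at an unadjusted p under 0.05) and 0 in female mice alone (22), subsets chosen after seeing the data and run with edgeR only. In B10.D2 they fell from 6 to 2 with no filter on low counts, and to 0 in males (11 at an unadjusted p under 0.05) and 0 in females (14) alone. The medians kept their sign there. Between sham strains 8 became 3 in males and 2 in females alone. Leaving out single libraries gave 5 to 13 in BALB/c, 1 to 9 in B10.D2, 5 to 13 between sham strains and 3 to 48 in rat. Without rat sham 4 and SNT 1, which mostly lay closest to the opposite group, 52 were called, with a median of −0.71. The title number as a replicate block gave 27 of 55 rat members called, and 0 of 4 shams correlated best with the SNT library of its own number. Paired analysis in mouse was not possible because library numbers are not shared between groups. DESeq2 called 14 in BALB/c, 7 in B10.D2, 8 between sham strains and 40 in rat. These counts and those of the left-out fits stand without the share of all features called in the same fit. Under every other alternative run, the counts of called members stayed within 1.5 times, and every median moved by less than the spread between libraries. No named member changed direction. Counts in the pathway lists after SNI were lowest in male mice alone, and in rat the count of assembly factors rose from 8 to 13 with DESeq2. Depth limits Cox8b, Cox7b2, Cox6a2 and Ndufa4l2, which had few counts, and features listed at 0 in rat could not be followed.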
